A study of Sus scrofa with 6 samples.

Results

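The cells described here are γδ T cells, lymphocytes whose antigen receptor is built from a gamma and a delta chain in place of the alpha and beta chains of CD4 and CD8 T cells. They were picked by their RNA alone, from unique molecular identifiers (UMIs, counts of captured transcripts) in single-cell libraries of unsorted skin. Barcodes needed 500 gene UMIs and 300 genes, and no more than 20% of their UMIs could be mitochondrial. A kept cell was taken as a γδ T cell with at least 2 UMIs over Cd3d, Cd3e and Cd3g, which encode the signalling chains shared by all T cell receptors, and at least 1 UMI of Trdc, the constant part of the delta chain. Cells with a UMI of Cd4, Cd8b1, Foxp3, Csf1r or Csf3r were left out, which removed marked CD4, CD8 and regulatory T cells and cells with myeloid receptors. In all, 1067 cells met these criteria, 1.28% of 83559 kept cells and 25.3% of the 4210 cells with at least 2 Cd3 UMIs and no Csf1r or Csf3r UMI, called CD3+ cells below.

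The study profiled 6 libraries, 1 per label and so with no replicate of any label. Per the labels, 4 came from irradiated skin of red duroc pigs carrying a 1 mg patch of deferoxamine, an iron chelator: as pretreatment for 2 weeks ahead of radiotherapy, continuously for 18 weeks, acutely during 12 weeks of recovery, or chronically for 4 weeks once recovery had ended. The other 2 were irradiated skin and normal skin without a patch. The files go against the labels: all 32285 gene features were mouse Ensembl genes, the acute, chronic, irradiated and normal libraries carried hashtag antibodies against mouse cells (4 in each), and the title given to the series is about adhesions and an agent against JUN. Libraries are named here by their labels, genes as mouse genes, and nothing is put down to radiation or deferoxamine. The number of animals in a library and their age are not given in the sources used here.

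In the mouse, γδ T cells are set up in waves before and around birth, and each wave uses its own variable segments and settles in its own tissue. The epidermis holds dendritic epidermal T cells, which make growth factors for keratinocytes and carry cytotoxic granules, while the dermis and other barrier layers hold cells that make interleukin 17 without prior priming in response to interleukins 1 and 23. The interleukin 17 program rests on factors that include c-Maf (Maf), Sox13 and PLZF (Zbtb16) and the kinase Blk, and drives neutrophil recruitment, antimicrobial defence and skin inflammation. A separate γδ lineage depends on T-bet (Tbx21) and makes interferon gamma.

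Depth differed widely between libraries. The libraries labelled pretreatment, continuous, acute, chronic, irradiated and normal gave 15, 140, 189, 334, 180 and 209 γδ T cells, with a median of 8486, 3594, 1111, 2252.5 and 1545.5 UMIs for the first 5 and 1822 for the last. Doublet scores marked 95 γδ T cells (8.90%), and 17 shared a barcode with a cell of another library. CD4 T cells (676 cells), CD8 T cells (270 cells) and CD3+ cells without a Trdc, Cd4, Cd8b1 or Foxp3 UMI (1795 cells) were defined with the same Cd3 and myeloid criteria for comparison. CD4 T cells needed a Cd4 UMI and no Cd8b1 UMI, CD8 T cells the reverse, and both classes held no Trdc or Foxp3 UMI. With 15 members, the pretreatment library did not enter the tests.

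The label held up against a receptor gene that the rule had not used. Tcrg-C1, a constant gene of the gamma chain, was found in 62.0% of γδ T cells, against 5.18% of CD4 T cells, 1.48% of CD8 T cells and 14.9% of CD3+ cells with no Trdc, Cd4, Cd8b1 or Foxp3 UMI. Median depth in these classes was 2068, 2628.5, 2555.5 and 1913 UMIs. After cells were thinned to 1000 UMIs, leaving out 140, 33, 12 and 263 shallower cells, the Tcrg-C1 shares were 38.7%, 2.33%, 0.388% and 8.88% in the same order. Cells with at least 2 myeloid receptor UMIs and no Cd3 UMI, which should lack these genes, showed Tcrg-C1 in 0.364% of cells at a median depth of 3069 UMIs. Any gamma constant gene was found in 67.5% of all γδ T cells, and any alpha or beta constant gene in 61.0% of all γδ T cells.

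The alpha chain separated the classes more sharply than the beta chain. Trac, the alpha constant gene, was found in 11% of γδ T cells, against 63.5% of CD4 and 58.1% of CD8 T cells, and at 1000 UMIs in 6.15% of γδ T cells, against 34.8% and 29.8%. Trbc2, a beta constant gene, was found in 42.3% of γδ T cells, against 68.5% of CD4 and 80.7% of CD8 T cells, far above its 1.90% in myeloid cells. Trbc1 was found in 32.3% of γδ T cells, against 46.3% and 44.1%. Reads of the near-identical Trbc1 and Trbc2, and of Tcrg-C1, Tcrg-C2 and Tcrg-C3, can be split between copies by the counting, so single members of these families are uncertain.

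**Figure D1:**
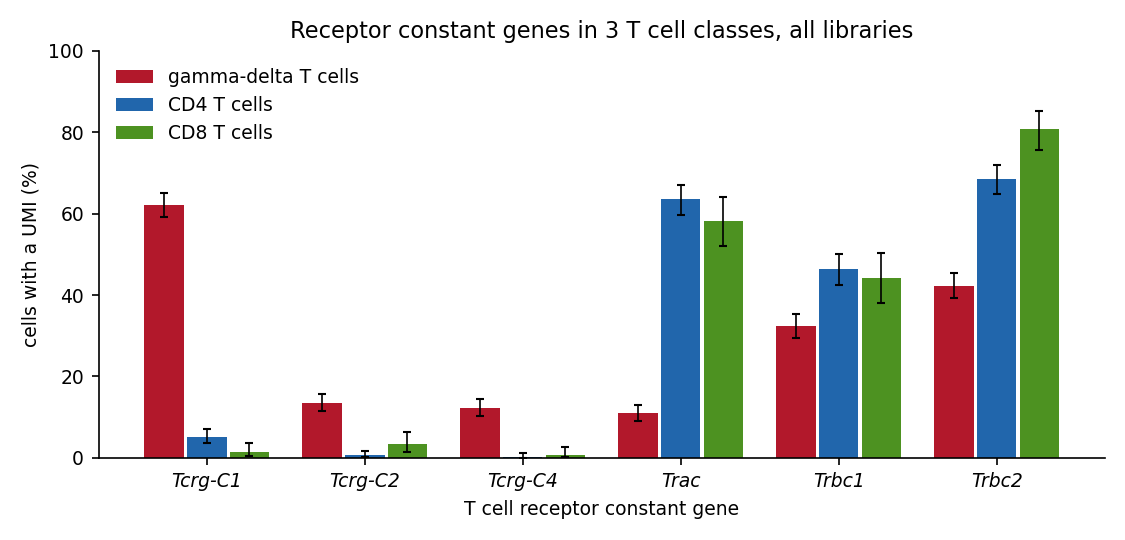
Share of γδ, CD4 and CD8 T cells with at least 1 UMI of each T cell receptor constant gene, as a percentage of the cells of a class over all 6 libraries, with exact 95% intervals for counting error. Gamma constant genes stand high in γδ T cells, Trac stands low, and Trbc1 and Trbc2 are found in all 3 classes.

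The threshold on Trdc cuts through a continuum. Among members, 253 held 1 Trdc UMI, 195 held 2, 142 held 3 and 477 held 4 or more. A gamma constant UMI was found in 51.8% of members with 1 Trdc UMI, in 72.4% of members with 2 or more and in 18.3% of CD3+ cells just outside, with no Trdc, Cd4, Cd8b1 or Foxp3 UMI. On the Cd3 side, 328 members held exactly 2 Cd3 UMIs (52.4% with a gamma constant UMI), and 410 cells that met every other criterion held 1 (39.5%). Another 300 cells were left out for a myeloid UMI and 44 for a Cd4, Cd8b1 or Foxp3 UMI. Trdc itself appeared in 1.18% of myeloid cells and in 8.32% of cells with at least 5 Col1a1 UMIs and no Cd3 UMI, at a median depth of 3069 and 5131 UMIs.

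One delta variable gene gave most of the delta variable UMIs. Trdv4, the delta segment that mouse epidermal and interleukin 17-making γδ T cells share, was found in 532 of 1067 γδ T cells (49.9%), against 1 of 946 CD4 and CD8 T cells and 0.108% of myeloid cells. CD4 and CD8 T cells were picked to hold no Trdc UMI, so the rule partly set this contrast for a delta gene. At 1000 UMIs the Trdv4 share was 33.7% of γδ T cells, against 0.156% of CD4 T cells, and no CD8 T cell held it (0 of 258 cells). Of the other delta segments, Trdv5 had a UMI in 2 cells, and Trdv1, Trdv2-1, Trdv2-2 and Trdv3 in 0 of 1067.

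Among gamma segments, Tcrg-V6, used by interleukin 17-making cells of the mouse dermis, was found in 56 γδ T cells (5.25%, and 2.27% at 1000 UMIs) and in 0 of 946 CD4 and CD8 T cells, which at a floor of 3 cells allows up to 0.317% of cells with a captured UMI and sets no limit on cells that express it. Trgv2 was found in 101 γδ T cells (9.47%), against 5 CD4 and CD8 T cells. Tcrg-V5, the segment of mouse dendritic epidermal T cells, was found in 6 γδ T cells, Tcrg-V1 in 7 and Tcrg-V7 in 3, while Tcrg-V4 was found in none. Libraries read from the 3′ end of transcripts rarely reach variable segments, so these counts say little about cells without one. Of the 56 Tcrg-V6 cells, 43 (76.8%) also held Trdv4, against 48.4% of the other γδ T cells, and 51 (91.1%) held Cd163l1, against 73.8%. These shares pool all libraries and were not matched for library or depth. The continuous and chronic libraries held 15 and 27 of the Tcrg-V6 cells. In γδ T cells of those libraries Trdv4 was found in 71.4% and 60.5%, and Cd163l1 in 78.6% and 82.9%.

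The 4210 CD3+ cells included 1795 without a Trdc, Cd4, Cd8b1 or Foxp3 UMI, which the criteria assigned to no class. Cells picked as γδ T cells by a captured Trdc UMI were a minority of CD3+ cells in every library. Their share, with the exact 95% interval for counting error, was 17% (9.87 to 26.6) for pretreatment, 17.2% (14.7 to 20.0) for continuous, 27.7% (24.3 to 31.2) for acute and 25.2% (22.9 to 27.7) for chronic, against 28.1% (24.7 to 31.8) in irradiated. Relative to irradiated, the difference was -11.1 points (-19.1 to -0.966) for pretreatment, -10.9 points (-15.3 to -6.45) for continuous, -0.453 points (-5.40 to 4.48) for acute and -2.88 points (-7.21 to 1.34) for chronic, so that the intervals of the first 2 excluded 0 and the others did not. Between irradiated (28.1%) and normal (31.5% (28.0 to 35.2)) the difference was -3.35 points (-8.40 to 1.72), and its interval excluded 0 with 2 Trdc UMIs required, at -6.69 points (-11.3 to -2.06), and among all kept cells, at -0.367 points (-0.571 to -0.167). With 1 library per label these intervals hold no variation between animals, and no test between labels was possible.

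The order depended on the denominator and on depth. As a share of all kept cells, γδ T cells made up 1.00% of the pretreatment library, 1.57% of continuous, 0.783% of acute and 3.64% of chronic cells, against 0.814% in irradiated and 1.18% in normal. The chronic library thus had the highest share of kept cells, and CD3+ cells as a whole made up 14.4% of its kept cells, against 2.89% of the irradiated ones. At 1000 UMIs the criteria were applied again to the thinned counts. The acute share of CD3+ cells was then 17.9% (45 of 252), against 29.6% (80 of 270) in irradiated. Of the γδ T cells, 81 acute and 34 irradiated ones were too shallow to enter, and others no longer met the criteria once thinned. The continuous share was then 20.2%, a difference of -9.39 points (-16.2 to -2.79) that still excluded 0, while the pretreatment difference, -8.01 points (-21.2 to 9.43), did not. Requiring 2 Trdc UMIs, the continuous share was 15.1% and the pretreatment share 17%, against 19.1% in irradiated, and both intervals of the difference included 0. Depth moved with the labels.

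**Figure D2:**
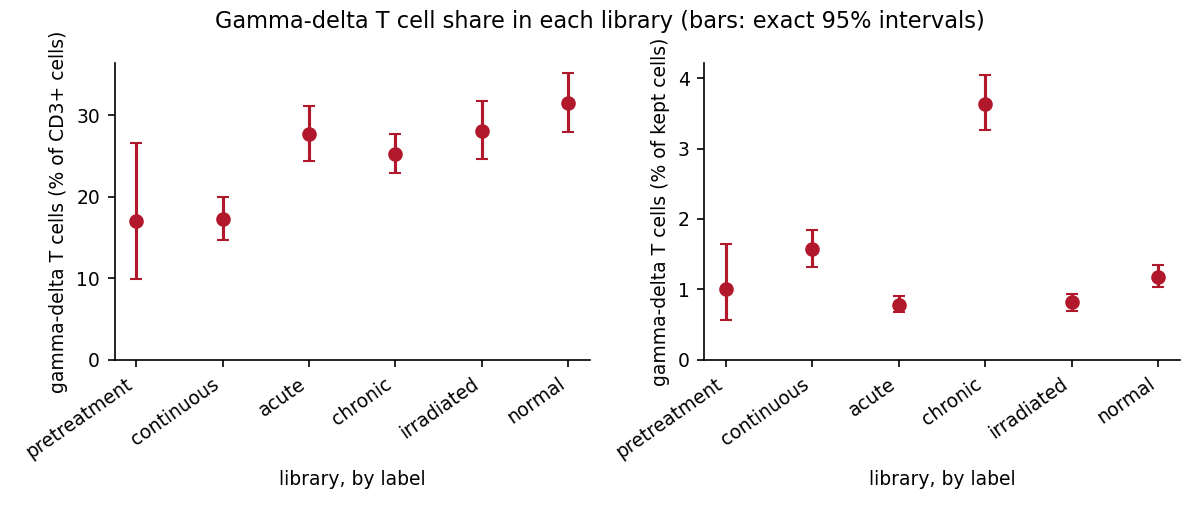
γδ T cells in each library as a percentage of CD3+ cells (left) and of all kept cells (right), with exact 95% intervals for counting error. The pretreatment and continuous libraries have the lowest share of CD3+ cells, and the chronic library the highest share of kept cells (3.64%).

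Against CD4 T cells of the same libraries, γδ T cells carried more RNA of the innate interleukin 17 program and less of the costimulatory and receptor-proximal genes of conventional T cells. UMIs were summed per class in the continuous, acute, chronic, irradiated and normal libraries, scaled to counts per 1000000 gene UMIs (CPM) and compared with edgeR's quasi-likelihood test, with the library as a block and Benjamini-Hochberg adjustment over all 6786 genes tested. At an adjusted p below 0.05, 410 genes (6.04% of those tested) were higher in γδ T cells and 320 (4.72%) were lower, and the median log2 fold change over all tested genes was -0.02. The p-values measure the spread between these 5 libraries, for which no source says that they came from separate animals. Of the 30 tested members of the type 17 list, 18 were higher and 0 lower, with a median log2 fold change of 0.87. A lone signed number in brackets after a gene name is its log2 fold change, γδ T cells over the other class.

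Cd163l1 (SCART1), a scavenger receptor of mouse interleukin 17-making γδ T cells, led the genes that rose, receptor genes aside. In the continuous, acute, chronic, irradiated and normal libraries it stood at 764, 638, 1066, 664 and 1002 CPM in γδ T cells, against 13.6, 24.4, 1.30, 4.79 and 0 CPM in CD4 T cells (log2 fold change 6.60, SE 0.37, adjusted p = 1.44e-07). Every γδ value lay above every CD4 value, and 74.7% of γδ T cells held a UMI, against 1.92% of CD4 T cells and 0.750% of myeloid cells. At 1000 UMIs the shares were 57.6% of γδ T cells and 1.09% of CD4 T cells. In the same libraries Blk, a Src-family kinase required by interleukin 17-making γδ T cells in mice, stood at 267, 183, 272, 203 and 220.0 CPM in γδ T cells, against 5.22, 19.5, 2.60, 0 and 5.94 CPM in CD4 T cells (log2 fold change 5.52, SE 0.33, adjusted p = 2.32e-07), again without overlap. Zbtb16, which encodes the innate-lineage factor PLZF, averaged 104 ± 17 CPM in γδ T cells and 7.27 ± 9.83 CPM in CD4 T cells (SD, n = 5 libraries each, here and below; log2 fold change 4.44, SE 0.40, adjusted p = 1.02e-05).

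The other regulators of the program did not move alike. Maf, the factor that commits mouse γδ T cells to interleukin 17, stood at 1156, 1581, 1451, 1749 and 1058 CPM in γδ T cells, against 642, 571, 582, 906 and 618 CPM in CD4 T cells (log2 fold change 1.10, SE 0.11, adjusted p = 2.62e-05). The lowest γδ value, in the normal library, exceeded the highest CD4 value, in the irradiated one. Sox13 had 75 UMIs in γδ T cells and 1 in CD4 T cells over the 5 libraries, a ratio of 64.5 in CPM with a 95% counting interval of 11.2 to 2581. Rora did not pass the test (1465 ± 278 CPM in γδ T cells and 1363 ± 241 CPM in CD4 T cells, log2 fold change 0.13, adjusted p = 0.336). The receptors through which the program is triggered were higher: Il23r (1.43, adjusted p = 0.00533) and Il1r1 (0.91, adjusted p = 0.00155), each in 5 of 5 libraries.

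Il17a RNA was higher in γδ T cells than in CD4 T cells, and Il17f RNA did not pass the test. Il17a stood at 4263, 1617, 3066, 3752 and 2048 CPM in γδ T cells of the continuous, acute, chronic, irradiated and normal libraries, against 1997, 1635, 1365, 633 and 624 CPM in CD4 T cells (log2 fold change 1.31, SE 0.25, adjusted p = 0.00341). γδ T cells were higher in 4 of 5 libraries, the acute library was the exception, and the ranges overlapped. Il17a was found in 66.4% of γδ T cells, against 38.9% of CD4 T cells and 2.11% of myeloid cells, and at 1000 UMIs in 56.5% of γδ T cells, against 28.3% of CD4 T cells. Il17f stood at 4183, 566, 848, 2262 and 1502 CPM in γδ T cells, against 3501, 1064, 1202, 795 and 363 CPM in CD4 T cells, higher in 3 of 5 libraries (log2 fold change 0.45, SE 0.32, adjusted p = 0.468). Il17f was found in 44.7% of γδ T cells with Il17a and in 25.7% of those without, over all libraries and not matched for library or depth. Il22 did not pass the test (log2 fold change -0.97, SE 0.43, adjusted p = 0.191).

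Amphiregulin, an epidermal growth factor receptor ligand of tissue repair, was the one growth factor of 12 tested that was called, and it was higher. Areg stood at 2791, 1560.0, 3093, 1623 and 256 CPM in γδ T cells, against 872, 332, 639, 264 and 178 CPM in CD4 T cells (log2 fold change 1.98, SE 0.21, adjusted p = 3.44e-05). γδ T cells were higher in each of the 5 libraries, although the normal γδ value lay below 4 of the 5 CD4 values. Areg was found in 41.1% of γδ T cells, against 24.7% of CD4 T cells and 8.08% of myeloid cells. Of γδ T cells with Areg, 79.5% also held Il17a, against 57.3% of those without, over all libraries and not matched for library or depth. Without the library block Areg and Il17a had an adjusted p of 0.0899 and 0.111. Ifng, the signature cytokine of type 1 cells, was lower (14.6 ± 15.3 CPM in γδ T cells and 119 ± 93.2 CPM in CD4 T cells; log2 fold change -2.86, SE 0.62, adjusted p = 0.00941), in 4 of 5 libraries, and was found in 11 of 1067 γδ T cells. Without the chronic library its adjusted p was 0.0698.

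The genes with the largest increases beyond these included Npnt (3.31), which encodes the integrin ligand nephronectin, Calca (4.49), the gene of the neuropeptide CGRP, and Vdr (3.14), the vitamin D receptor. Npnt stood at 196, 252, 285, 321 and 358 CPM in γδ T cells, against 23.0, 29.3, 22.1, 43.1 and 29.7 CPM in CD4 T cells, with no overlap (adjusted p = 8.07e-08). Vdr stood at 51.4, 68.9, 88.2, 156 and 78.0 CPM in γδ T cells, against 8.35, 4.88, 7.80, 9.58 and 17.8 CPM in CD4 T cells, highest in the irradiated γδ T cells (adjusted p = 8.62e-06). The adhesion receptor gene Adgrg5 (3.63), Abi3bp (3.04) and the survival gene Bcl2a1a (2.94) were also among the 10 genes with the largest called increase of the same sign in every library, receptor and rule genes aside. Bcl2a1a has near-identical copies, among them Bcl2a1b and Bcl2a1d, so the counts of each are uncertain.

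Genes of conventional T cell activation were lower. Of 18 tested receptor signalling genes, 10 were lower and 1 was higher (median log2 fold change -0.65), and of 14 checkpoint and costimulation genes 6 were lower and 1 was higher (median -0.53). Cd28, the principal costimulatory receptor, stood at 12.8, 18.0, 21.5, 28.2 and 40.0 CPM in γδ T cells, against 313, 215, 509, 570.3 and 547 CPM in CD4 T cells (log2 fold change -4.19, SE 0.17, adjusted p = 1.02e-08). Lck, the kinase that starts receptor signalling with CD4 and CD8, stood at 17.7, 15.0, 11.9, 25.6 and 12.0 CPM in γδ T cells, against 163, 117, 172, 144 and 202 CPM in CD4 T cells (log2 fold change -3.31, SE 0.23, adjusted p = 1.02e-06). All γδ values of both genes lay below all CD4 values. Themis (-4.99) and Ubash3a (-4.49), which tune receptor signals, the adhesion receptor Cd2 (-3.23) and the inhibitory receptor Cd5 (-2.66) fell with them, while Cd247, the zeta chain, rose (0.92).

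Among costimulators, Cd40lg (-5.50), the ligand through which CD4 T cells help other cells, Tnfrsf4 (-5.27), encoding OX40, and Tnfsf8 (-4.53) were among the 8 largest decreases, together with Penk (-5.58), the enkephalin precursor, and Gm8369 (-4.14). The checkpoint gene Ctla4 was lower (208 ± 149 CPM in γδ T cells and 857 ± 276 CPM in CD4 T cells; log2 fold change -2.19, SE 0.25, adjusted p = 7.19e-05), and Pdcd1, encoding PD-1, was higher (401 ± 83.4 CPM in γδ T cells and 98.4 ± 27.7 CPM in CD4 T cells; log2 fold change 2.08, SE 0.18, adjusted p = 5.54e-06). Of 11 genes of naive and circulating T cells, 4 were lower and 0 higher: Ccr7 (-1.89) and S1pr1 (-1.98), which guide cells to and out of lymph nodes, and the factors Tcf7 (-1.77) and Lef1 (-2.57). All 3 alpha-beta constant genes were lower, Trac by far the most (Trac -2.51, Trbc1 -0.74, Trbc2 -0.84), and without the library block Trbc1 and Trbc2 had an adjusted p of 0.109 and 0.311. All 4 tested gamma-delta constant genes were higher, Trdc by the rule's own choice and Tcrg-C1 (4.79) and Tcrg-C2 (4.63) outside it, and Tcrg-C4 with a ratio of 68.8 in CPM, from 160 UMIs in γδ T cells and 2 in CD4 T cells (95% counting interval 18.7 to 573).

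The cytotoxic and interferon gamma list was split, with 5 of 17 tested members higher and 4 lower (median 0.31). Gzmb, a granule protease, stood at 848, 278, 738, 538 and 646 CPM in γδ T cells, against 173, 127, 92.3, 307 and 261 CPM in CD4 T cells (log2 fold change 1.82, SE 0.26, adjusted p = 4.65e-04). The γδ value of the acute library was the lowest and lay below the irradiated CD4 value. Gzmc (2.03), Hopx (0.80), Klrk1 (0.95) and Il2rb (0.35) were also higher, whereas Ifng, Nkg7 (-1.51), Klrc1 (-0.69) and Cd27 (-2.21) were lower. The dendritic epidermal T cell list was split as well, with 5 higher and 4 lower of 12. Itgae (1.24), encoding the epithelium-binding integrin CD103, Cd7 (1.07), Jaml (0.74), a costimulator of epidermal cells, and Gzmc rose. So did Trdv4, where the rule on Trdc partly set the contrast. Ctla2a (-2.69), Ctla2b, Tnfrsf18 and Cd81 fell.

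Residency and homing genes had 8 of 19 members higher and 3 lower. Cxcr6, a chemokine receptor of tissue-resident lymphocytes, stood at 1034, 1108, 1294, 1213 and 1532 CPM in γδ T cells, against 759, 425, 760.2, 699.7 and 547 CPM in CD4 T cells (log2 fold change 0.98, SE 0.14, adjusted p = 3.57e-04), with no overlap. Ccr2 (0.82), Cd44 (0.69) and Gpr183 (0.82) were higher too. Of 23 cytokine receptor genes, 6 were higher and 5 lower. Il2ra, the high-affinity chain for interleukin 2, was higher (1385 ± 411 CPM in γδ T cells and 602 ± 90.6 CPM in CD4 T cells; log2 fold change 1.18, SE 0.18, adjusted p = 6.57e-04), and the lower ones included Il18r1, Il18rap and the decoy receptor Il1r2 (-1.42).

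Stress and activation genes were modestly higher. Of 20 AP-1 and immediate early genes, 8 were higher and 0 lower (median 0.46), and of 20 NF-kB and inflammatory genes 8 were higher and 0 lower (median 0.46). Jun, the AP-1 subunit named in the series title's therapy, stood at 212, 428, 217, 618 and 382 CPM in γδ T cells, against 89.8, 469, 146, 119.8 and 214 CPM in CD4 T cells (log2 fold change 0.94, SE 0.25, adjusted p = 0.0274). γδ T cells were higher in 4 of 5 libraries, and the adjusted p exceeded 0.05 when the chronic, continuous, irradiated or normal library was left out, at 0.0608 to 0.109, and without the library block, at 0.366. Fos missed the threshold (log2 fold change 0.51, SE 0.16, adjusted p = 0.0577) but was called without the acute library (adjusted p = 0.0168). Junb (0.42), Jund (0.47) and the NF-kB inhibitor gene Nfkbia (0.63) were higher in 5 of 5 libraries.

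Few genes of the remaining programs were called. Of 23 interferon-stimulated genes 3 were lower and 0 higher, and of 27 proliferation genes 5 were lower and 1 higher (median -0.36), with Hmgb2 at 902 ± 142 CPM in γδ T cells and 1713 ± 157 CPM in CD4 T cells (log2 fold change -0.90). Of 22 hypoxia and iron genes, Fth1, which encodes the ferritin heavy chain (0.55), and Bnip3 (0.84) were higher and Gapdh (-0.37) was lower. Of 17 p53 and DNA damage genes, Gadd45b alone was called (0.46).

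RNA of other cell types was present in both classes. The summed neutrophil markers ranged over the 5 libraries from 1259 to 9548 CPM in γδ T cells, against 1643 to 8104 CPM in CD4 T cells, and the summed fibroblast markers from 380.4 to 9418 CPM, against 198 to 6947 CPM. No tested marker of macrophages (13), fibroblasts (10), keratinocytes (7) or erythroid cells (4) was called, and of 10 neutrophil markers Il1r2 was lower. The B cell genes Ighm (-5.27) and Igkc (-5.00) and the mast cell gene Kit (-3.42) were lower in γδ T cells, with summed B cell markers of at most 106 CPM, against up to 9764 CPM in CD4 T cells of the normal library. The natural killer genes Ncr1 and Klrb1c were found in 1 and 6 of 1067 γδ T cells.

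**Figure D3:**
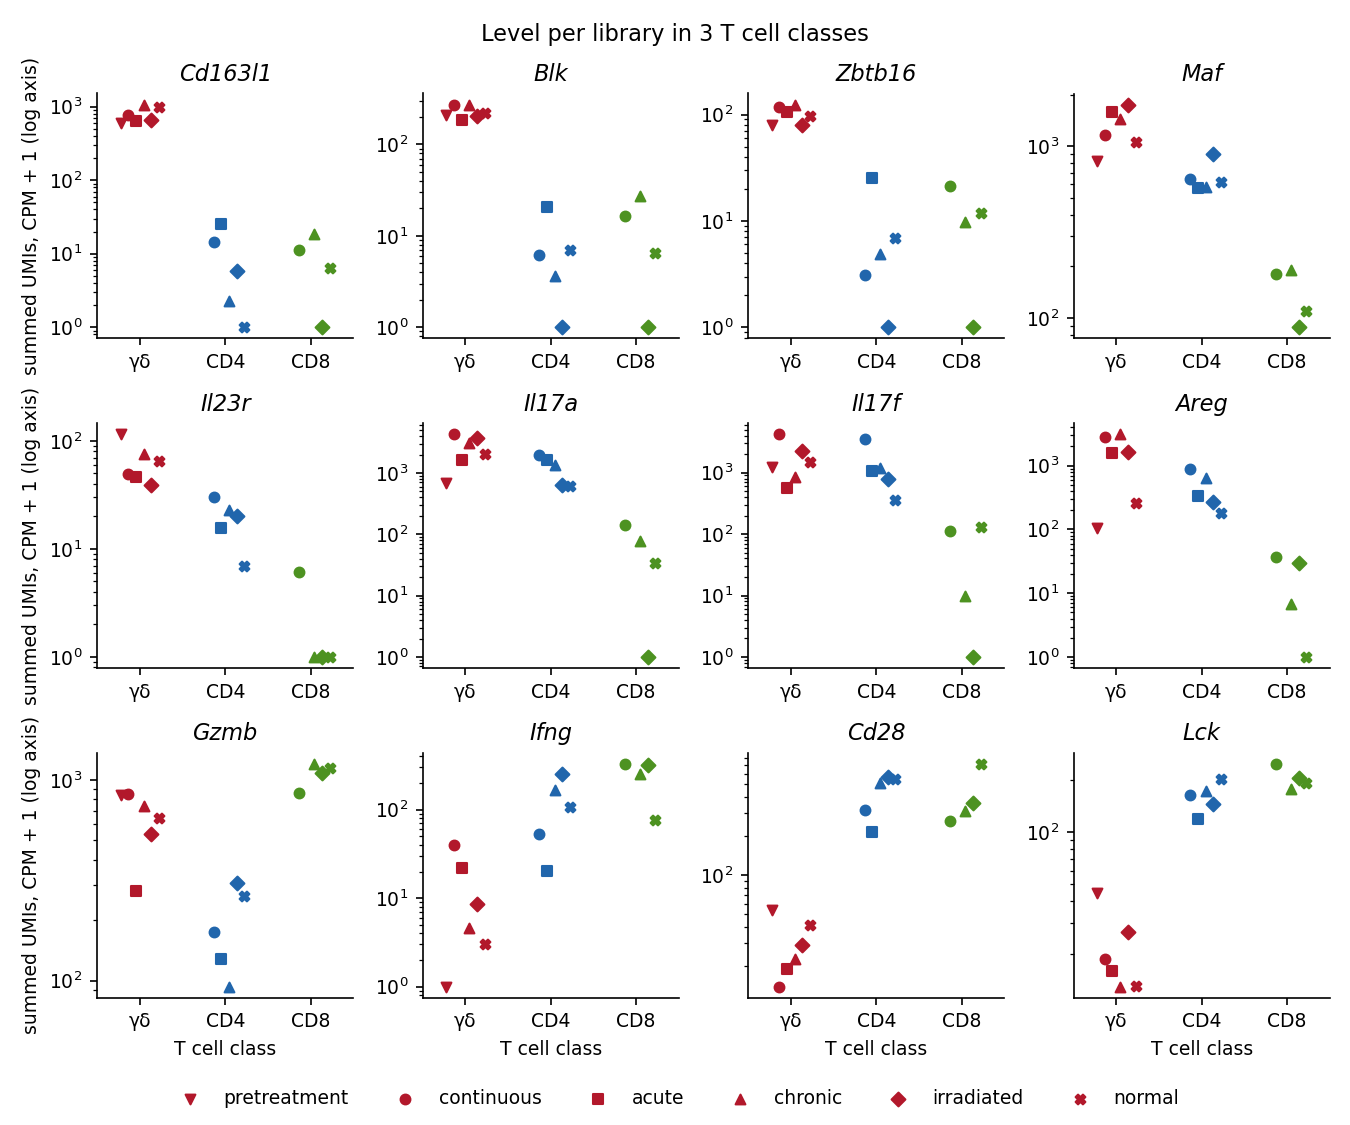
Level of 12 genes in γδ, CD4 and CD8 T cells, as CPM of the summed UMIs plus 1 on a log axis, with 1 symbol per library. CD4 T cells of pretreatment and CD8 T cells of pretreatment and acute numbered under 20 and are not drawn, and Cd163l1, Blk and Zbtb16 separate γδ T cells from both other classes, Il17a and Areg separate them from CD8 T cells, and Cd28 and Lck are low in γδ T cells.

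Against CD8 T cells the contrast was interleukin 17 on one side and granule-mediated killing on the other. The comparison used the continuous, chronic, irradiated and normal libraries, the 4 with at least 20 cells in both classes, and shares its γδ T cells with the comparison above. Of 5798 genes tested, 450 (7.76%) were higher in γδ T cells and 304 (5.24%) lower (median log2 fold change over all genes -0.02). The type 17 list had 24 of 29 tested members higher and 0 lower, with a median of 2.26. The cytotoxic and interferon gamma list had 3 of 21 higher and 16 lower, with a median of -2.37.

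Il17a stood at 4263, 3066, 3752 and 2048 CPM in γδ T cells of the continuous, chronic, irradiated and normal libraries, against 143, 75.9, 0 and 32.6 CPM in CD8 T cells (log2 fold change 5.65, SE 0.38, adjusted p = 1.95e-06). Il17f stood at 4183, 848, 2262 and 1502 CPM in γδ T cells, against 112, 8.75, 0 and 130.4 CPM in CD8 T cells (log2 fold change 5.14, SE 0.46, adjusted p = 1.88e-05). Areg stood at 2791, 3093, 1623 and 256 CPM in γδ T cells, against 35.7, 5.84, 29.1 and 0 CPM in CD8 T cells (log2 fold change 7.08, SE 0.39, adjusted p = 4.24e-07). In these 3 genes the lowest γδ value was above the highest CD8 value. Il23r had 140 UMIs in γδ T cells and 1 in CD8 T cells, a ratio of 49.2 in CPM with a 95% counting interval of 8.69 to 1957, and was called. Rora (2.10) and Maf (3.20) were both called higher, in 4 of 4 libraries.

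Cd163l1 (6.45), Npnt (4.90), Bcl2a1a (4.24) and Blk (4.06) were again among the 10 largest increases, joined by Ppp1r14c (4.11). Sox13 had 65 UMIs in γδ T cells and none in CD8 T cells, at least 7.61-fold higher at a floor of 3 UMIs over the CD8 sum, and Csf2, the cytokine GM-CSF, had 62 and none, at least 7.26-fold higher. Of 9 growth factor genes 5 were higher and 0 lower (median 1.38): Areg, Hbegf (1.38), Tgfb1 (0.86), Furin (1.78) and Csf2. Of 18 NF-kB and inflammatory genes 9 were higher and 0 lower, and of 19 AP-1 genes 5 were higher and 0 lower. Jun (log2 fold change 0.62, adjusted p = 0.186) and Fos (0.69, adjusted p = 0.134) missed the threshold, though both were called without the continuous library (adjusted p = 0.0127 and 0.00597).

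Granule genes were lower in γδ T cells. Gzma stood at 45.0, 21.5, 12.8 and 38.0 CPM in γδ T cells, against 1168, 1313, 582 and 1293 CPM in CD8 T cells (log2 fold change -5.26, SE 0.22, adjusted p = 1.31e-07). Gzmk had 2 UMIs in γδ T cells and 74 in CD8 T cells, a ratio of 0.00950 in CPM (95% counting interval 0.00113 to 0.0355). Gzmb differed less, at 848, 738, 538 and 646 CPM in γδ T cells, against 862, 1196, 1085 and 1146 CPM in CD8 T cells (log2 fold change -0.64, SE 0.16, adjusted p = 0.0200), and the highest γδ value, in the continuous library, lay just below the lowest CD8 value. Nkg7 (-4.56) and Ifng (-4.38) were lower, and Il2rb (0.79), Hopx (0.76) and Gzmc (1.73) were higher.

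Receptor signalling genes were again mostly lower, with 11 of 19 lower and 2 higher (median -0.96). Lck (-3.65), Cd28 (-3.98) and Themis (-5.94) were lower, Sh2d1a had 2 UMIs in γδ T cells and 54 in CD8 T cells (ratio 0.0130, 95% counting interval 0.00154 to 0.0493), and Cd247 (1.53) and Zap70 (1.32) were higher. Cd8a, the partner chain of the Cd8b1 that defined the classes, was lower (-7.17). Ms4a4b (-5.18), Gm8369 (-4.84) and BE692007, with 1 UMI in γδ T cells and 49 in CD8 T cells, were the other large decreases. Of 25 proliferation genes 14 were lower and 0 higher (median -0.95), among them Mki67 (-0.86), and of 9 naive and circulating genes 5 were lower and 0 higher. Of markers of other cell types, Krt14 (2.08), Pecam1 (1.46) and Il1r2 (1.11) were higher in γδ T cells and none of the tested macrophage, fibroblast or erythroid markers was called.

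**Figure D4:**
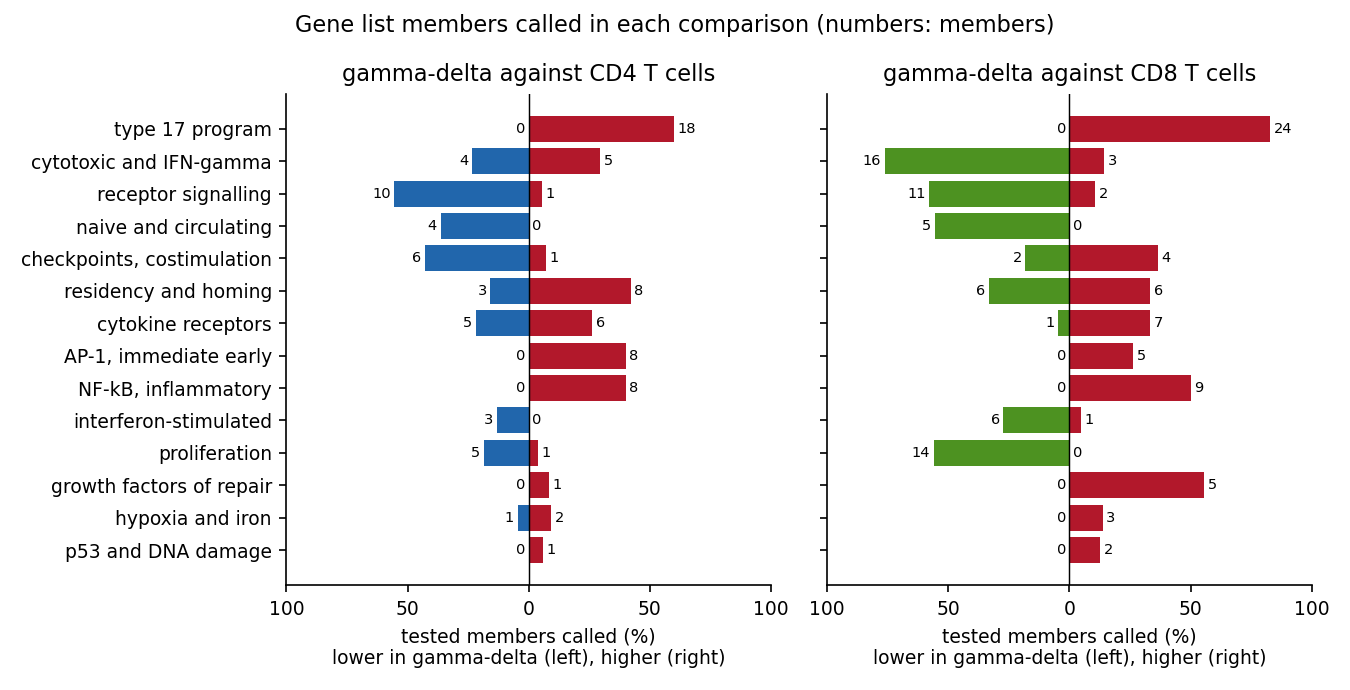
Members of 14 gene lists called in γδ T cells against CD4 T cells (left) and against CD8 T cells (right), as a percentage of the tested members, with bars to the right for higher and to the left for lower in γδ T cells and the number of members beside each bar. The type 17 list has 18 and 24 members higher and none lower, and the receptor signalling list has 10 and 11 lower.

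γδ T cells were also split among themselves by 7 type 17 genes (among them Il23r, Cd163l1, 5830411N06Rik, Ccr6, Sox13 and Blk) and 7 cytotoxic lineage genes (Tbx21, Eomes, Cd27, Klrd1, Klrk1, Il2rb and Nkg7), each side needing at least 2 UMIs and more than the other. The type 17-marked side held 450 cells, the other marked side 376, and 241 cells were in neither. The second side rested on Il2rb, the shared receptor chain for interleukins 2 and 15, rather than on killing: 365 of its 376 cells held an Il2rb UMI, 105 held Klrk1, 32 Nkg7 and 23 Klrd1. Il2rb was also found in 359 of the 450 type 17-marked cells, and Cd163l1 in 431 of them and in 241 of the 376. The second side is called the Il2rb-marked side below. Type 17-marked cells made up 53.3%, 62.1%, 49.6%, 55.0%, 49.6% and 54.9% of marked cells in the pretreatment, continuous, acute, chronic, irradiated and normal libraries.

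The split separated few genes. In the 5 libraries without pretreatment, 4247 genes were tested, of which 6 (0.141%) were higher on the type 17-marked side and 9 (0.212%) lower, the genes of the split included. Il17a did not differ by the test (2632 ± 1228 CPM in type 17-marked cells and 3283 ± 2121 CPM in Il2rb-marked cells; log2 fold change -0.20, SE 0.25, adjusted p = 0.965) and was found in 299 of 450 type 17-marked and 253 of 376 Il2rb-marked cells. At 1000 UMIs those Il17a shares were 56.2% and 57.9%. Ifng had 1 UMI on the type 17-marked side and 36 on the Il2rb-marked side, a ratio of 0.0222 with a 95% counting interval of 5.47e-04 to 0.132, in 1 and 9 cells. Trdv4 was found in 57.8% of type 17-marked and 48.9% of Il2rb-marked cells, and at 1000 UMIs in 37.3% and 32.9%.

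Of genes outside the split, Hspb1 (2.32), a small heat shock protein, the keratinocyte genes Krt14 (2.19) and Lgals7 (1.60) and S100a4 (0.47) were higher on the type 17-marked side. Krt14 stood at 47.6, 578, 32.0, 822 and 23.2 CPM in type 17-marked cells, against 18.2, 41.2, 15.0, 218 and 5.35 CPM in Il2rb-marked cells (adjusted p = 0.00102). The highest values of both sides were those of the irradiated and acute libraries, and the ranges overlapped. Of all 5 tested keratinocyte markers 2 were higher, and of 8 tested neutrophil markers 2 were lower. Spp1 (-1.05), the chemokine genes Ccl4 (-0.96), Ccl3 (-0.87) and Cxcl2 (-0.50), and the neutrophil markers S100a9 (-0.67) and S100a8 (-0.65) were lower. Without the cells marked as doublets, none of these 6 lower genes was called, and 5 of them had positive values, from 0.24 for Spp1 to 0.44 for Ccl4. Each of the 6 also missed the threshold without the chronic library, and S100a4 without the acute, chronic, continuous or normal one. Krt14 and Hspb1 were called without the marked cells as well (adjusted p = 0.00554 and 0.0152). Without the library block, 1 gene was called in place of 15.

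Between labels, single libraries were compared, so no p-value is given and every interval covers counting error alone. A gene counts as higher or lower here at 1.5-fold or more with an exact 95% interval for the ratio of CPM that excludes 1, among genes with at least 20 UMIs over both sums. The 4 patch libraries are set against the same irradiated library, so these comparisons share it. Ifng was at 0, 24, 7 and 3 UMIs in γδ T cells of pretreatment, continuous, acute and chronic, against 3 in irradiated and 1 in normal, and so reached the minimum against irradiated in continuous alone (5.01-fold higher, 95% interval 1.52 to 26.0), where its UMIs came from 3 of 140 cells of continuous and 3 of 180 of irradiated. Trdv4 stood at 694, 581, 207 and 614 CPM in γδ T cells of pretreatment, continuous, acute and chronic, against 223 CPM in irradiated and 326 CPM in normal. RNA of other cell types in γδ T cells differed too. The summed neutrophil markers came to 17.6, 1259, 9548, 2466, 7893 and 5104 CPM in γδ T cells of the libraries labelled pretreatment, continuous, acute, chronic, irradiated and normal, the summed fibroblast markers to 299, 1140.0, 8626, 380.4, 3695 and 9418 CPM, and the summed keratinocyte markers to 228, 220.0, 808, 229, 1628 and 116 CPM in the same order. Of the 15 neutrophil markers, 14 had a UMI in γδ T cells, Csf3r being barred by the rule. In the same order the summed macrophage markers came to 176, 617, 4955, 1207, 2679.7 and 1440.0 CPM and the summed erythroid markers to 61.5, 3666, 2341, 1747, 5349 and 2148 CPM. These levels moved with the label comparisons below, and their part in them was not tested.

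In the irradiated library, the summed RNA of γδ T cells held more Il17a, Il17f, Areg and stress gene RNA than in the normal library, and less Il22. Of 5602 genes tested, 6.64% were higher and 6.41% lower. Il17a had 3752 CPM in irradiated and 2048 CPM in normal (1.83-fold higher, 95% interval 1.69 to 1.99), Il17f 2262 CPM in irradiated and 1502 CPM in normal (1.51-fold higher, 95% interval 1.36 to 1.66) and Areg 1623 CPM in irradiated and 256 CPM in normal (6.34-fold higher, 95% interval 5.24 to 7.73). Il22 ran the other way, with 126 CPM in irradiated and 348 CPM in normal (2.77-fold lower, 95% interval 2.01 to 3.88), as did Cd163l1, with 664 CPM in irradiated and 1002 CPM in normal (1.51-fold lower, 95% interval 1.30 to 1.76). Among γδ T cells with a gamma constant UMI and no Trac UMI, the log2 ratios were 0.35 for Il17a and 0.36 for Il17f, under 1.5-fold. Il17f was found in a smaller share of irradiated cells (52 of 180, 28.9%) than of normal cells (89 of 209, 42.6%), against the direction of its CPM. Il17a was found in 126 and 117 of these cells (70.0% and 56.0%). Of 27 type 17 genes 6 were higher and 2 lower (median -0.11). Of 21 AP-1 and immediate early genes 11 were higher and 1 lower (median log2 ratio 0.69, against -0.06 over all genes), and Jun had 618 CPM in irradiated and 382 CPM in normal (1.62-fold higher, 95% interval 1.33 to 1.97), while Fos did not pass (328 CPM in irradiated and 364 CPM in normal). Among γδ T cells with a gamma constant UMI and no alpha or beta constant UMI, the log2 ratio of Jun was -0.76. Of 21 interferon-stimulated genes 8 were higher and 0 lower, of 19 NF-kB genes 9 and 1, and of 17 p53 and DNA damage genes 5 and 1. Cdkn1a, the p53-induced cell cycle inhibitor, was at 531 CPM in irradiated and 268 CPM in normal (1.98-fold higher, 95% interval 1.59 to 2.48). Gadd45a, Gadd45b, Plk2 and Gdf15 were the other higher genes of that list, and the lower one was Mdm2, also a p53 target.

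The largest ratios in that comparison were of epithelial genes. Fxyd3 had 55 UMIs in irradiated and none in normal (at least 23.5-fold higher), and Krt16 and Epgn had 46 and 42 UMIs in irradiated and 1 each in normal. Meg3 (5.70-fold), Hp (3.91-fold) and Lum (3.71-fold) were the lowest, although Hp had a log2 ratio of 1.05 among γδ T cells with a gamma constant and no Trac UMI, and Lum one of -0.36 at 1000 UMIs per cell. All 8 of 8 keratinocyte markers with enough UMIs were higher (median 4.18), and 9 of 11 fibroblast markers were lower (median -1.10). Of 22 hypoxia and iron genes 1 was higher, the transferrin receptor gene Tfrc at 133 CPM in irradiated and 72.0 CPM in normal (1.85-fold higher, 95% interval 1.19 to 2.92). In CD4 T cells of those libraries the summed keratinocyte markers were 196 CPM in irradiated and 713 CPM in normal.

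Taken over all its γδ T cells, the continuous library had more Il17f, Il22 and cell cycle RNA and less immediate early RNA than the irradiated library. In this comparison 11.9% of 5714 genes were higher and 18.6% lower. Il17f had 4183 CPM in continuous and 2262 CPM in irradiated (1.85-fold higher, 95% interval 1.71 to 2.00) and Il22 623 CPM in continuous and 126 CPM in irradiated (4.96-fold higher, 95% interval 3.68 to 6.82), while Il17a did not pass (4263 CPM in continuous and 3752 CPM in irradiated). The Il22 UMIs came from 15 cells of continuous and 5 of irradiated. The log2 ratio of Il17f was 0.39 without marked doublets and -0.15 among γδ T cells with a gamma constant UMI and no alpha or beta constant UMI. That of Il17a was negative without marked doublets. The marking was uneven, with 30 of 180 γδ T cells marked in irradiated and 4 of 140 in continuous. Areg had 2791 CPM in continuous and 1623 CPM in irradiated (1.72-fold higher, 95% interval 1.57 to 1.89). 5830411N06Rik (SCART2), a receptor of another subset of mouse interleukin 17-making γδ T cells, showed the largest ratio, with 72 UMIs in 13 cells of continuous and 2 UMIs in 2 cells of irradiated (22.5-fold higher, 95% interval 6.02 to 189.7), followed by the histone gene Hist1h1b (8.02-fold higher, 95% interval 3.26 to 25.5) and the mitochondrial iron-sulfur gene Cisd1 (6.35-fold higher, 95% interval 2.93 to 16.4). The type 17 list had 10 of 29 genes higher and 3 (Maf, Sox4 and Igf1r) lower, and the proliferation list 7 of 26 higher and 0 lower.

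Jun had 212 CPM in continuous and 618 CPM in irradiated (2.92-fold lower, 95% interval 2.35 to 3.63) and Fos 183 CPM in continuous and 328 CPM in irradiated (1.79-fold lower, 95% interval 1.38 to 2.33). Of 21 AP-1 genes 2 were higher and 14 lower, of 19 NF-kB genes 2 and 13, and of 20 interferon-stimulated genes 1 and 11. Of 9 neutrophil markers 8 were lower as well, and Prg4, Mmp12 (none in continuous, at least 25.6-fold and 24.5-fold lower) and Epgn (1 UMI in continuous and 42 in irradiated) were the lowest genes. All 4 of 4 gamma-delta constant genes with enough UMIs were higher, Trdc being a gene of the rule, and so were all 3 of the alpha-beta constant genes (median 1.34, against 0.99 for the gamma-delta genes).

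In the acute library, γδ T cells had less type 17 cytokine RNA than in the irradiated library, in a comparison where 5.49% of 4921 genes were higher and 4.02% lower. Il17a had 1617 CPM in acute and 3752 CPM in irradiated (2.32-fold lower, 95% interval 2.10 to 2.57), Il17f 566 CPM in acute and 2262 CPM in irradiated (4.00-fold lower, 95% interval 3.41 to 4.70) and Il22 24.0 CPM in acute and 126 CPM in irradiated (5.25-fold lower, 95% interval 2.46 to 12.8), and of 27 type 17 genes 0 were higher and 5 lower. The Il22 UMIs came from 4 of 189 cells of acute and 5 of 180 of irradiated. Il17f was found in near-equal shares of cells, 54 of 189 in acute (28.6%) and 52 of 180 in irradiated (28.9%). Il17a was found in 124 (65.6%) and 126 (70.0%) of these cells. Cd163l1 did not pass (638 CPM in acute and 664 CPM in irradiated), nor did Areg (1560.0 CPM in acute and 1623 CPM in irradiated), Jun (428 CPM in acute and 618 CPM in irradiated) or Fos (449 CPM in acute and 328 CPM in irradiated). Of 22 hypoxia and iron genes 4 were higher and 1 lower, with Vegfa, the angiogenic growth factor, at 162 CPM in acute and 87.2 CPM in irradiated (1.85-fold higher, 95% interval 1.19 to 2.94). The extreme genes were the adipocyte gene Cfd, with 62 UMIs in acute and none in irradiated (at least 24.1-fold higher), Eln and Car3 (69 and 42 UMIs in acute and 1 each in irradiated), and, lower, Krt17, Fxyd3 and Epgn (3, 2 and 3 UMIs in acute, against 90, 55 and 42 in irradiated). Of 11 fibroblast markers 7 were higher and 0 lower, and of 14 macrophage markers 6 and 0.

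In the chronic library, against the irradiated one, 7.08% of 6018 genes were higher and 13.4% lower. Cd163l1 had 1066 CPM in chronic and 664 CPM in irradiated (1.61-fold higher, 95% interval 1.40 to 1.85) and Areg 3093 CPM in chronic and 1623 CPM in irradiated (1.91-fold higher, 95% interval 1.75 to 2.08), whereas Il17f had 848 CPM in chronic and 2262 CPM in irradiated (2.67-fold lower, 95% interval 2.41 to 2.95) and Il22 14.3 CPM in chronic and 126 CPM in irradiated (8.78-fold lower, 95% interval 4.6 to 18.1). The Il22 UMIs came from 8 of 334 cells of chronic and 5 of 180 of irradiated. Il17f was found in 110 of 334 cells of chronic (32.9%) and 52 of 180 of irradiated (28.9%), so its share of cells was not lower. Il17a did not pass (3066 CPM in chronic and 3752 CPM in irradiated). The type 17 list had 9 of 28 genes higher and 4 lower, the AP-1 list 1 of 21 higher and 13 lower, and the interferon-stimulated list 0 of 21 higher and 12 lower. Jun had 217 CPM in chronic and 618 CPM in irradiated (2.85-fold lower, 95% interval 2.34 to 3.47) and Fos 197 CPM in chronic and 328 CPM in irradiated (1.67-fold lower, 95% interval 1.31 to 2.11). At 1000 UMIs per cell Fos had a log2 ratio of -0.34, and Jun had one of -0.32 among γδ T cells with a gamma constant and no alpha or beta constant UMI, both under 1.5-fold. Bcl2a1d (4.07-fold higher, 95% interval 2.75 to 6.25), the repressor gene Zeb1 (3.96-fold higher, 95% interval 2.65 to 6.14) and Bcl2a1b (3.92-fold higher, 95% interval 3.23 to 4.79) were highest, and Epgn (none in chronic and 42 UMIs in irradiated, at least 30.1-fold lower), the neutrophil chemokine gene Cxcl5 (3 UMIs in chronic and 155 in irradiated) and Fst (2 UMIs in chronic and 100 in irradiated) lowest. Bcl2a1b and Bcl2a1d are near-identical copies, so their separate counts are uncertain. Of 10 neutrophil markers 9 were lower and of 8 keratinocyte markers 8.

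The pretreatment library gave 15 γδ T cells, so its ratios rest on few cells, and 11.8% of 3816 genes were higher and 19.2% lower than in the irradiated library. Il17a had 685 CPM in pretreatment and 3752 CPM in irradiated (5.48-fold lower, 95% interval 4.36 to 6.97), Il17f 1212 CPM in pretreatment and 2262 CPM in irradiated (1.87-fold lower, 95% interval 1.56 to 2.25) and Areg 105 CPM in pretreatment and 1623 CPM in irradiated (15.4-fold lower, 95% interval 8.76 to 30.0). The pretreatment UMIs came from 5 of 15 cells for Il17a, 3 of 15 for Il17f and 2 of 15 for Areg. Among γδ T cells with a gamma constant UMI and no Trac UMI, the log2 ratios were -1.61 for Il17a and -0.25 for Il17f, the second under 1.5-fold. Cd163l1 did not pass (597 CPM in pretreatment and 664 CPM in irradiated), and Trdv4 had 694 CPM in pretreatment and 223 CPM in irradiated (3.11-fold higher, 95% interval 2.26 to 4.27). Of 21 AP-1 genes 0 were higher and 13 lower, with 2 Jun UMIs in pretreatment and 241 in irradiated (35.2-fold lower, 95% interval 9.64 to 292), and Fos had 246 CPM in pretreatment and 328 CPM in irradiated. Of 21 hypoxia and iron genes 1 was higher and 10 lower, with Hif1a, the oxygen-regulated factor, at 79.0 CPM in pretreatment and 1049 CPM in irradiated (13.3-fold lower, 95% interval 6.92 to 29.2). Ms4a4b (16.6-fold higher, 95% interval 7.26 to 44.5), Ctla2a (9.03-fold higher, 95% interval 5.44 to 15.5) and Bcl2a1d (7.34-fold higher, 95% interval 4.61 to 11.9) were highest, and Ctla4, Il10 and Prg4 had no UMI in pretreatment and 74, 65 and 48 in irradiated (at least 7.20-fold, 6.33-fold and 4.67-fold lower). The Bcl2a1d counts are uncertain because of its near-identical copies. All 9 of 9 neutrophil and 10 of 10 macrophage markers with enough UMIs were lower.

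**Figure D5:**
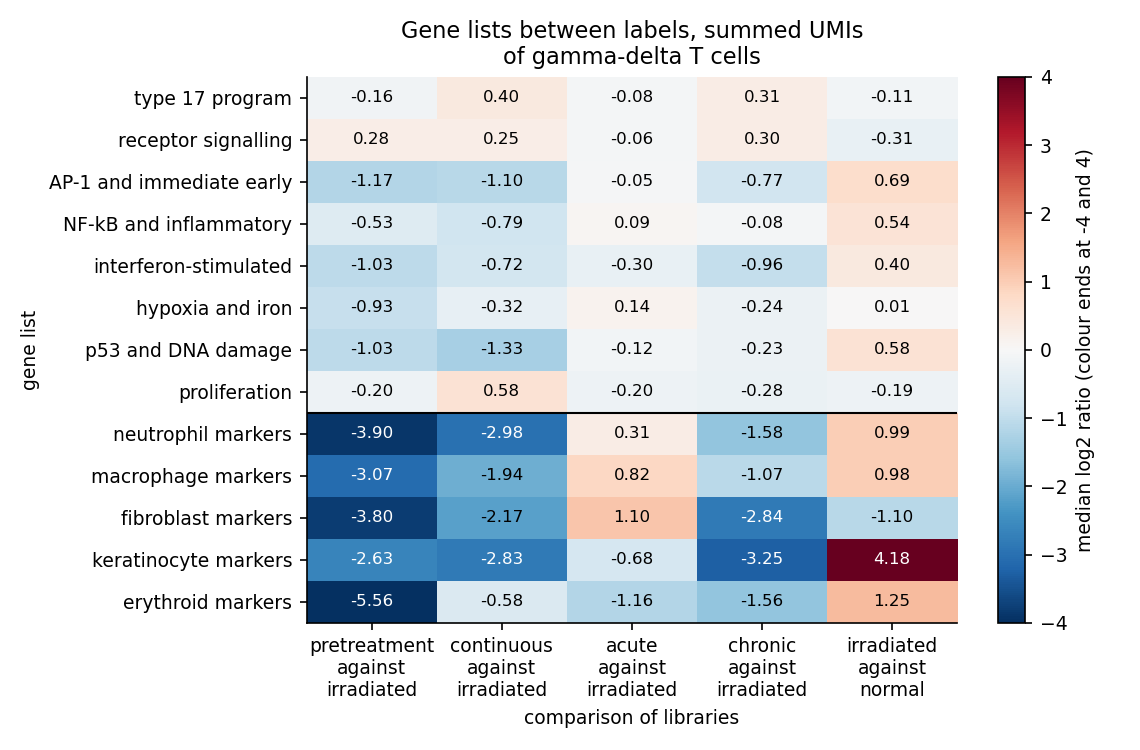
Median log2 ratio of CPM over the members of each gene list with at least 20 UMIs, in γδ T cells, for the 5 comparisons of libraries, with lists of other cell types under the line. The AP-1 list is at -1.17, -1.10, -0.05 and -0.77 in pretreatment, continuous, acute and chronic against irradiated and at 0.69 in irradiated against normal, and the neutrophil markers have the same signs in pretreatment, continuous, chronic and irradiated.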

How the data were processed

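Droplet single-cell RNA libraries of 6 samples were made after collagenase digestion, per the labels' protocols, with 3′ chemistry. The deposited matrices hold raw UMI counts, and their file headers name Cell Ranger 6.0.0; Seurat 5.0.1 is named in the submitters' processing notes, which give the pig build Sscrofa11.1 although the features are mouse genes. Deposited feature and barcode lists hold labels and no measurement. No deposited barcode had under 500 UMIs, and 0 columns were left without a sample. The aligner's own settings and the filters ahead of deposit are not given in the sources used here.

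Of 88337 barcodes, 83559 were kept. Gene UMIs per library came to 18611144 in pretreatment, 41423107 in continuous, 49408533 in acute, 37470412 in chronic, 54966435 in irradiated and 41136493 in normal. The selection of γδ T cells, the gene lists and the comparisons were chosen with earlier results of these data known. UMIs were summed per class and library in libraries with at least 20 cells in both classes (10 for the split of γδ T cells), genes with at least 10 UMIs in at least 3 sums were tested, and edgeR 4.0.16 (TMM, quasi-likelihood F test, library as block, Benjamini-Hochberg adjustment over all genes tested, threshold 0.05) was run in R 4.3.3. On simulated counts with 100 genes changed 2-fold, it recovered 90% against CD4 T cells, 60% against CD8 T cells and 94% in the split. Of 100 genes changed 4-fold it recovered 100% in each, and false calls numbered 7, 1 and 7. The changed genes were drawn from those averaging at least 20 UMIs per sum, and all simulated libraries had the same mean profile. These rates therefore do not cover tested genes with fewer UMIs or differences between libraries. DESeq2 1.42.0 was an alternative. Levels are UMIs per 1000000 gene UMIs of the sum. Ratios between libraries used exact conditional intervals and shares exact Clopper-Pearson intervals at 95%, and a count of 0 was set to a floor of 3 UMIs over the sum; all of these cover counting error only. Cells were thinned to 1000 UMIs for shares. For shares of cells with a gene, classes came from the unthinned counts. For the share of γδ T cells, the criteria were applied again to the thinned counts. Doublets were scored with Scrublet in scanpy 1.11.5. Where its own threshold marked under 0.5% of cells (4 libraries), the highest scores were marked at 0.8% per 1000 barcodes, up to 10%. The marked share was uneven, at 22.7% of kept cells in irradiated. It was 1.47% in pretreatment, 2.50% in continuous, 10.0% in acute, 7.78% in chronic and 10.0% in normal. A hashtag was assigned with at least 10 UMIs and 3 times the next.

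Named genes were, in the T cell comparisons, the 10 highest and 8 lowest called fold changes with 1 sign in every library and at least 50 CPM in the higher class (10 and 10 in the split), leaving out receptor, immunoglobulin, haemoglobin, ribosomal protein and mitochondrial genes and the genes of the selection, and between labels the 3 highest and 3 lowest ratios with at least 40 UMIs over both sums and at least 100 CPM in the higher library. Il17a, Il17f, Ifng, Areg, Jun and Fos are named throughout, as are receptor genes and the most abundant members of lists; further list members were chosen after their values were seen. Alternatives left out a library, the library block or marked doublets, thinned cells, or changed the filter, the scaling, the tool or the receptor criteria; the criterion of a gamma constant UMI without a Trac UMI was added after the data were seen. No sequence is shown, and some genes are not reported here.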

Additional observations from a re-analysis of the deposited data

Results flagged for a closer look

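Hashtag antibody counts, which no comparison above used, were present in the acute, chronic, irradiated and normal libraries, and the labels used here do not say which sample each antibody marked. Antibody 7 was assigned to 1 γδ T cell of the acute library, to 9 of the irradiated library, where 60 CD3+ cells carried it, and to 157 of the normal library, where 539 did (29.1%). Antibody 8 was assigned to 154 γδ T cells of the chronic library, among 749 CD3+ cells (20.6%). No antibody was assigned to 188 γδ T cells of acute, 180 of chronic, 171 of irradiated and 52 of normal. These counts drew attention as a signal in data outside the gene counts, and no group was drawn from them.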

How the results depend on the processing

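Against CD4 T cells 730 genes were called, with 339 by DESeq2, 248 with no replicate block for the library, 438 in cells thinned to 1000 UMIs, 240 in γδ T cells with a gamma constant and no alpha or beta constant UMI (4 libraries), and 376 (without chronic) to 642 with 1 library left out; 470 were called without continuous. Against CD8 T cells 754 were called, with 469 by DESeq2, 471 with no replicate block, 463 thinned, and 300 (without chronic) to 910 with 1 library left out; 483 were called without normal. Within γδ T cells 15 were called, with 74 without the filter on low counts, 1 with no replicate block, 8 without marked doublets, 8 thinned, and 7 (without chronic) to 17 with 1 library left out; 9 were called without continuous. Unadjusted p-values under 0.05 numbered 1531, 1444 and 256 genes in these comparisons. Without marked doublets Spp1 (0.24), Ccl4 (0.44), Ccl3 (0.37), S100a9 (0.44) and S100a8 (0.32) reversed within γδ T cells. Of all kept cells, the share differed from irradiated by 0.187 points in pretreatment, 0.757 in continuous and 2.82 in chronic. Each had the opposite sign to the difference among CD3+ cells, where the chronic interval had included 0. The difference of the continuous share was -4.99 with gamma and no alpha or beta constant UMI, -3.52 with gamma and no Trac UMI and -3.91 with 2 Trdc UMIs. It was 2.03 for chronic with 2 Trdc UMIs and -11.8 for acute when thinned. Genes past the fold numbered 731 for irradiated against normal (264 thinned, 176 with gamma and no alpha or beta constant UMI, 457 at 2-fold), and against irradiated 1181 for pretreatment (259, 66), 1742 for continuous (620.0, 308, 1143), 468 for acute (209, 197, 288) and 1234 for chronic (573, 378, 780.0), in the same order. Log2 ratios that reversed were, with gamma and no Trac UMI, Hp in irradiated against normal (1.05) and Il17a in chronic (0.38); with gamma and no alpha or beta constant UMI, Jun in irradiated against normal (-0.76) and in acute (0.61) and Il17f in continuous (-0.15); thinned, Jun in acute (0.46); and without marked doublets, Il17a in continuous (-0.20). The cause was not tested. No paired analysis was possible between labels because each label has 1 library. Among single genes, 1099 alternative values kept their side and direction, 47 lost a call, 11 gained one and 68 moved.

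Limits: with 1 library per label, animals, batch and depth cannot be told apart from the label. The selection rests on few UMIs per cell, and 18.3% of the 1795 CD3+ cells without Trdc or coreceptor UMIs held a gamma constant UMI, while 11% of the 1067 held a Trac UMI.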

Other observations

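Cycling and interleukin 22 transcripts were seen in few γδ T cells. Mki67, a marker of dividing cells, was found in 6 of 15 γδ T cells of pretreatment, 31 of 140 of continuous, 13 of 189 of acute and 32 of 334 of chronic, against 25 of 180 of irradiated and 36 of 209 of normal, at depths that differed between libraries. Il22 was found in 64 of 1067 γδ T cells, of which 29 were in the normal library and 15 in the continuous one, and 31 were type 17-marked and 20 Il2rb-marked. 5830411N06Rik (SCART2) was found in 31 γδ T cells, of which 13 also held Cd163l1 and none held Tcrg-V6. Gzmb was found in 463 γδ T cells, of which 6 held Ifng.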
